A study of Mus musculus with 2 samples.

Results

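The 9 genes described here mark the layers of the cerebral cortex and its glutamatergic neurons, and were measured in cultured mouse neural stem cells after knockdown of the histone variant H3.3. They were chosen by symbol, and all 9 were found among the 18510 genes of the deposited count table. The set holds the deep-layer transcription factors Tbr1, Bcl11b, Fezf2 and Sox5, the upper-layer transcription factors Cux1, Cux2 and Rorb, and the vesicular glutamate transporters Slc17a6 and Slc17a7. The cells came from the brain of CD-1 embryos at embryonic day 12 and grew for 5 days in proliferation medium, and both groups received a lentivirus. One group is the control, whose lentivirus carried a control plasmid, and the other carried an H3.3 knockdown plasmid. The labels give embryonic brain as the tissue and not a region of it, so a cortical origin of the cells is not given. Each group is 1 library, the labels do not say how many embryos or cultures it stands for. The sources used here do not give the knockdown sequence.

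As background, the cortex is built from the inside out: neurons of the deep layers are born before those of the upper layers, and all of its projection neurons use glutamate. The deep-layer factors steer neurons towards corticothalamic or subcerebral targets, with Tbr1 favouring the corticothalamic and Fezf2 with Bcl11b the subcerebral identity. Cux1, Cux2 and Rorb mark neurons that mostly connect within the cortex, Rorb above all those that receive thalamic input. The vesicular transporters load glutamate into synaptic vesicles, so they report the transmitter and not the layer. Slc17a7 prevails in the mature cortex and Slc17a6 in the thalamus, in the brainstem and early in development.

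Gene counts summed to 9184779 in the control and to 8702855 in the knockdown sample. Levels are in CPM, a gene's count scaled to its library's total. Ratios are knockdown over control with 95% exact conditional intervals of the 2 counts, which cover counting error only. With 1 library per group no test of the condition exists and no difference has a replicate check. A gene is called higher or lower here by a size rule, which requires a 2-fold difference, an interval that excludes 1 and an average level of 1 CPM or more. Both genes of H3.3 had less RNA in the library labelled knockdown, H3f3b at 0.544 of the control level (0.523 to 0.566) and H3f3a at 0.646 (0.601 to 0.695). The neural stem cell markers Nes and Sox2 were abundant in both, Nes at 544 and 462 CPM and Sox2 at 522 and 439 CPM.

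Of the 9 genes, Slc17a7 and Tbr1 were called higher and none was called lower. Over all 13989 tested genes, 3.82% were called higher and 2.54% lower, 6.36% in all. All 9 genes had at least 1 CPM in each library, and their means exceeded 10 CPM. At that minimum 1.64% of 10279 genes were called higher and 1.69% lower, 3.34% in all. The median log2 ratio of the 9 was 0.12, against -0.03 over all tested genes. The 2 transporters had a median of 1.41, the 4 deep-layer genes 0.10 and the 3 upper-layer genes -0.04. The set was thus split, with 3 genes near or above a doubling and 6 between log2 ratios of -0.46 and 0.19. In bulk RNA, fewer cells of a type and less RNA per cell cannot be told apart.

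**Figure D1:**
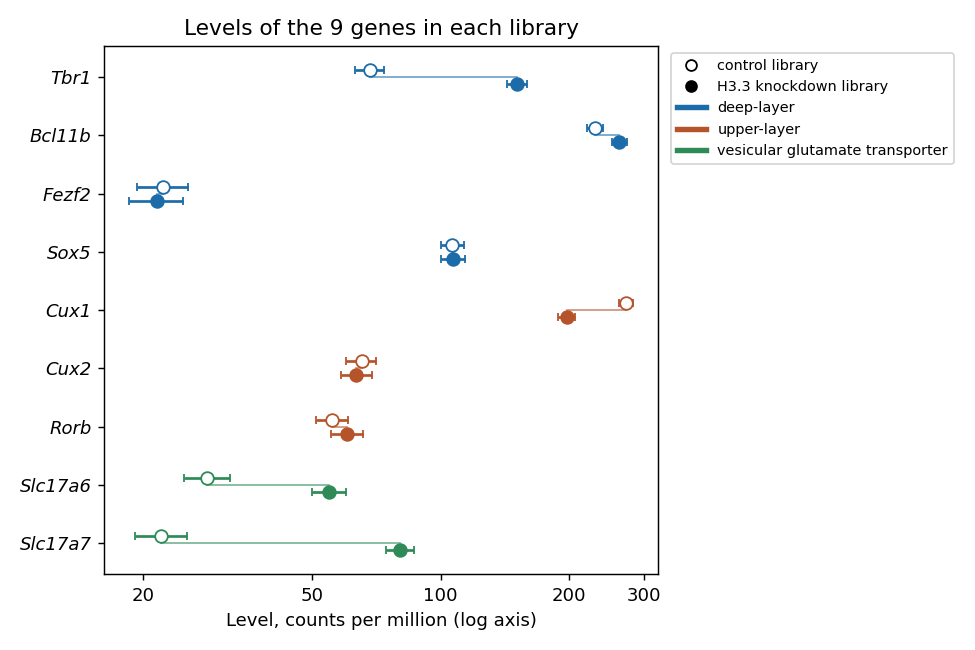
Levels of the 9 genes in CPM (log axis) in the control library (open circles) and the H3.3 knockdown library (filled circles), with 95% exact Poisson intervals of each count. The intervals of the libraries lie apart for Tbr1, Cux1, Slc17a6, Slc17a7 and, by little, Bcl11b, and overlap for Fezf2, Sox5, Cux2 and Rorb. Such separation was common: the interval of the ratio lay above 1 for 22.9% and below 1 for 27.0% of 13989 tested genes. Among the 9 genes it lay above 1 for 4 and below 1 for 1.

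Of the 3 classes, the vesicular glutamate transporters had the largest median log2 ratio, although by gene Tbr1 lay between them. Slc17a7 (ENSMUSG00000070570, chromosome 7 from 45163921 to 45176138, plus strand), which encodes VGLUT1, had 203 counts or 22.1 CPM in the control library. In the knockdown library it had 700 counts or 80.4 CPM. The knockdown library was the higher one at 3.64 times the control (3.11 to 4.28), a log2 ratio of 1.86, and 0.472% of tested genes had a larger log2 ratio. Slc17a6 (ENSMUSG00000030500, chromosome 7 from 51621830 to 51671125, plus strand), which encodes VGLUT2, had 260 counts or 28.3 CPM in the control library and 477 counts or 54.8 CPM in the knockdown library. It was 1.94 times the control (1.66 to 2.26), short of the 2-fold threshold, with a log2 ratio of 0.95. The call of Slc17a6 thus rests on the threshold: at 1.5-fold it was called higher together with Tbr1 and Slc17a7 and none of the 9 was called lower. That threshold called 9.01% of tested genes higher and 8.2% lower, 17.2% in all.

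The 2 transporter genes lie on the same chromosome but far apart, and the 250 bases before the RefSeq start site nearest to each deposited gene start (GRCm38.p6, plus strand) are shown because these paralogs were both above the control. Capitals mark E-boxes (CANNTG, the core bound by the bHLH factors of the neuronal lineage) and GC boxes (GGGCGG on either strand).
Slc17a7, chr7:45163671-45163920: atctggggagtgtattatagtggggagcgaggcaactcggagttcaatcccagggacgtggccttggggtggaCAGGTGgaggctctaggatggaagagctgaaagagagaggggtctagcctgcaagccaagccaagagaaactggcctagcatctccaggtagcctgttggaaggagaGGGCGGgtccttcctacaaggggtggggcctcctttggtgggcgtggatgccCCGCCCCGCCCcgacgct
Slc17a6, chr7:51621580-51621829: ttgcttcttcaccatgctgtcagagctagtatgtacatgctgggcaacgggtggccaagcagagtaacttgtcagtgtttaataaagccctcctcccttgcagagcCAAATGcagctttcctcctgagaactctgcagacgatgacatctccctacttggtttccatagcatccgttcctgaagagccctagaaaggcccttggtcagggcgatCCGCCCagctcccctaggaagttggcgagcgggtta
Each window held 1 E-box, CAGGTG in Slc17a7 and CAAATG in Slc17a6, and 66.2% of all 32851 RefSeq windows of this length hold at least 1. Slc17a7 had 3 GC boxes, of which the last pair overlaps by 1 base, and Slc17a6 had 1, while 32.7% of all windows hold a GC box. The windows had 61.2% and 53.2% G and C, and neither held TATAAA on either strand, which 12.4% of all windows do. Among the 9 genes, the window nearest to the deposited gene start, which for Sox5 lies far inside the gene, held an E-box in 4 and a GC box in 5. The windows of Tbr1 and Cux1 lay wholly within annotated exons, and those of Bcl11b, Fezf2 and Cux2 in part. These counts therefore do not describe upstream sequence alone. The bases checked after the start site of Slc17a6 were in no GENCODE transcript of the gene, unlike those of Slc17a7. The window of Tbr1 is not printed because it overlaps an annotated exon.

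Among the deep-layer genes only Tbr1 met the size rule. Tbr1 (ENSMUSG00000035033, chromosome 2 from 61802930 to 61814114, plus strand), the T-box factor of corticothalamic neurons, had 627 counts or 68.3 CPM in the control library and 1315 counts or 151 CPM in the knockdown library. The knockdown library was the higher one at 2.21 times the control (2.01 to 2.44), a log2 ratio of 1.15, and 2.93% of tested genes had a larger log2 ratio. The lower bound of that interval lies just above the 2-fold threshold.

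Bcl11b (ENSMUSG00000048251, chromosome 12 from 107910403 to 108003602, minus strand) encodes CTIP2, a zinc finger factor of subcerebral projection neurons that striatal projection neurons also express. It had 2117 counts or 230.5 CPM in the control library and 2283 counts or 262 CPM in the knockdown library. Its ratio was 1.14 (1.07 to 1.21), an interval above 1 with a difference far from 2-fold, and 30.5% of tested genes had a larger log2 ratio. Sox5 (ENSMUSG00000041540, chromosome 6 from 143828425 to 144781977, minus strand), an SoxD factor that controls the timing of deep-layer fates and is also found in progenitors and the oligodendrocyte lineage, was level. It had 979 and 931 counts, or 107 CPM in each library, with a ratio of 1.00 (0.917 to 1.10). Fezf2 (ENSMUSG00000021743, chromosome 14 from 12341892 to 12345865, minus strand), the zinc finger factor that specifies subcerebral neurons and is also expressed in early progenitors, had 205 and 188 counts, or 22.3 and 21.6 CPM. Its ratio was 0.968 (0.790 to 1.19). The intervals of Sox5 and Fezf2 leave out a 1.5-fold difference in either direction, as far as counting error goes, and the sign of both log2 ratios changed between the processing alternatives.

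No upper-layer gene met the size rule. Cux1 (ENSMUSG00000029705, chromosome 5 from 136248135 to 136567490, minus strand), a cut homeobox factor, had 2499 counts or 272 CPM in the control library and 1718 counts or 197 CPM in the knockdown library. The knockdown library was the lower one at 0.726 of the control (0.682 to 0.772), a log2 ratio of -0.46, and 14.5% of tested genes had a smaller log2 ratio. The Cux1 locus also encodes CASP, a Golgi protein made from an alternative transcript, and counts per gene do not separate it from the homeobox protein.

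Its paralog Cux2 (ENSMUSG00000042589, chromosome 5 from 121856366 to 122050102, minus strand), which is found in upper-layer neurons and their progenitors, had 599 and 552 counts, or 65.2 and 63.4 CPM. The ratio of Cux2 was 0.973 (0.865 to 1.09). Rorb (ENSMUSG00000036192, chromosome 19 from 18930605 to 19111196, minus strand), a nuclear receptor of thalamus-recipient neurons, had 511 and 526 counts, or 55.6 and 60.4 CPM. The ratio of Rorb was 1.09 (0.960 to 1.23), so for both genes the libraries did not differ beyond counting error. Exons of Cux1 and Sox5 overlap annotated antisense genes, Gm16599 by 394 bases and Sox5os1 by 1330 bases, and the sources used here do not say whether counting used strand.

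**Figure D2:**
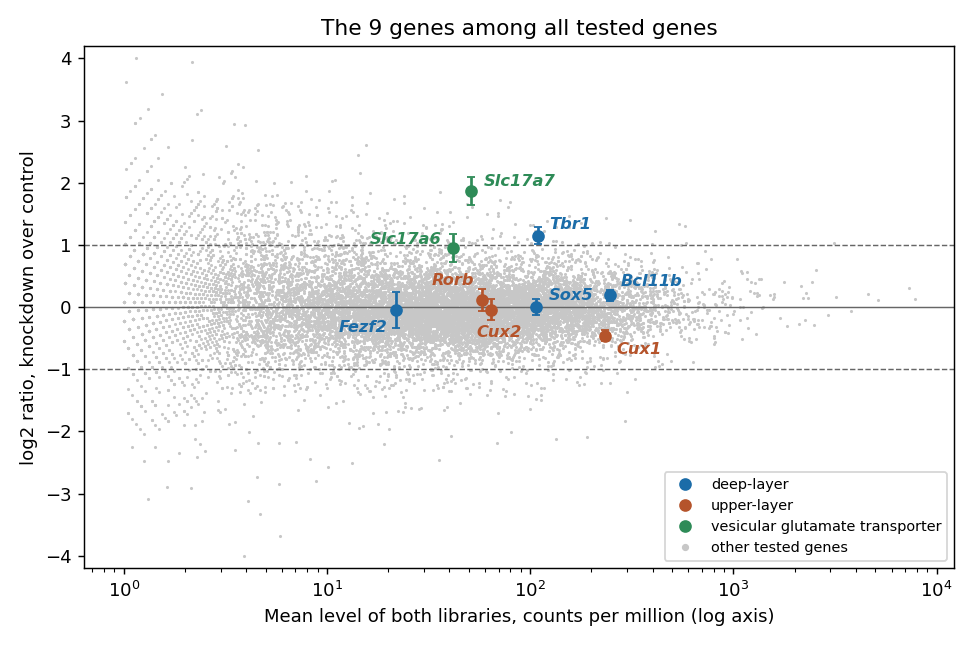
The log2 ratio of knockdown over control against the mean level of both libraries in CPM (log axis) for all tested genes (grey) and the 9 genes (coloured by class, with 95% counting intervals). Slc17a7 and Tbr1 lie above the dashed line of a 2-fold difference and Slc17a6 just below it, while 2 grey genes beyond 4 in size are drawn at the edge of the axis.

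Ratios between genes within a library do not depend on the scaling. There were 0.781 counts of Slc17a7 for each count of Slc17a6 without and 1.47 with the knockdown, a 1.88-fold shift towards Slc17a7 (1.503 to 2.35). The more abundant of the transporters by count was therefore Slc17a6 in the control and Slc17a7 in the knockdown library. There were 0.240 counts of Cux2 for each of Cux1 in the control and 0.321 with the knockdown, a 1.34-fold shift (1.17 to 1.53) carried by the lower count of Cux1.

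Summed over genes, deep-layer factors went from 428 CPM in the control to 542 CPM with the knockdown, and upper-layer factors from 393 to 321 CPM. The ratio of deep-layer to upper-layer counts went from 1.09 to 1.69, a 1.55-fold shift (1.45 to 1.66). This shift rested on Tbr1 and Cux1: it was 1.33-fold without Tbr1 and 1.24-fold without Cux1. With both left out, a choice made after the values were seen, it was 1.06-fold with an interval that includes 1 (0.962 to 1.17).

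**Figure D3:**
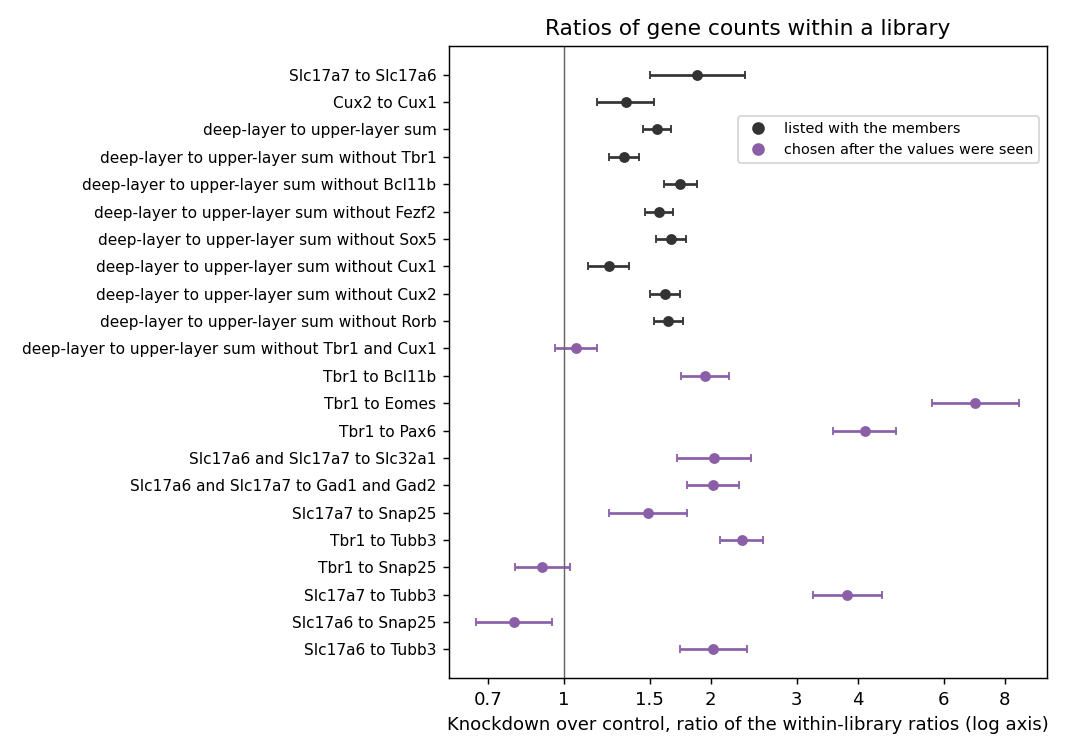
Knockdown over control for ratios of counts within a library (log axis), with 95% exact conditional intervals; black points belong to the listed genes and purple points were chosen after the values were seen. Points above 1, which are all but Tbr1 and Slc17a6 against Snap25, mark pairs whose first gene or sum was relatively more abundant with the knockdown, and the shift of deep-layer against upper-layer genes shrinks to 1.06 without Tbr1 and Cux1.

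To set genes against each other, CPM was divided by the length of the merged exons in GENCODE vM21. In the control library Bcl11b stood first at 28.4 CPM per kilobase, followed by Cux1 at 13.6 and Tbr1 at 12.4, whose intervals overlap. Sox5, Fezf2 and Cux2 followed at 7.41, 7.33 and 6.47, and the lowest were Slc17a6, Rorb and Slc17a7 at 5.24, 5.02 and 4.10. Neighbours in these trios had overlapping intervals, and Slc17a7 stood last of the 9.

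In the knockdown library Bcl11b remained first at 32.3 CPM per kilobase and Tbr1 was second at 27.5. Slc17a7 came next at 14.9 and then Slc17a6 at 10.2, the latter not apart from Cux1 at 9.86. Sox5, Fezf2, Cux2 and Rorb followed at 7.44, 7.09, 6.29 and 5.46, each with an interval that overlaps that of the next. The order depends on the length taken: per kilobase of the longest transcript Tbr1 stood above Bcl11b in the knockdown library, at 38.0 against 32.3, and the lowest gene of the control library was Rorb at 5.99, not apart from Slc17a6.

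Among further genes of the same layers the calls were few, and with lists this short their share cannot be set apart from the 6.36% of all tested genes that were called. Of 10 tested further deep-layer genes 1 was called lower and none higher, 6 lay above 0 and 4 below, and their median log2 ratio was 0.14. The gene called was Crym, which encodes a thyroid hormone binding protein, with 80 counts in the control and 31 with the knockdown (0.409 of the control, 0.261 to 0.626). Of 11 further upper-layer genes 1 was called lower and none higher, 7 lay above 0 and 4 below, and the median was 0.11. It was Pou3f2, which encodes the POU factor BRN2 of upper-layer neurons and progenitors, with 1645 and 691 counts (0.443, 0.405 to 0.485). Tle4 and Foxp2, both found with Tbr1 in corticothalamic neurons, had ratios of 1.15 (1.07 to 1.24) and 1.48 (1.25 to 1.74), below the rule. Ldb2 had the largest ratio of the further deep-layer genes at 1.65 (1.39 to 1.97), also below the rule. Some uncalled deep-layer genes lay below 1, among them Etv1 at 0.776 (0.712 to 0.845) and Syt6 at 0.955 (0.772 to 1.18). Among upper-layer genes the uncalled ones with the largest ratios were the semaphorin receptor gene Plxnd1 at 1.77 (1.62 to 1.95) and the netrin receptor gene Unc5d at 1.73 (1.47 to 2.03). Uncalled and below 1 were, among others, Pou3f3 at 0.773 (0.740 to 0.808) and Nectin3 at 0.826 (0.750 to 0.909). Pou3f3 was the most abundant of the further upper-layer genes. The uncalled genes Tle4, Foxp2, Ldb2, Etv1, Syt6, Plxnd1, Unc5d, Pou3f3 and Nectin3 were picked after their values were seen.

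The remaining vesicular glutamate transporter was also called higher, from few counts. Slc17a8, which encodes VGLUT3, had 10 counts in the control and 30 with the knockdown, a ratio of 3.17 with a wide interval (1.51 to 7.26). The lysosomal sialic acid transporter Slc17a5 was the other SLC17 relative with values here, with 213 and 253 counts and a ratio of 1.25 (1.04 to 1.51). None of 7 genes of glutamate supply met the rule, and their median log2 ratio was 0.12. The most abundant of them, Glud1 for glutamate dehydrogenase and Slc38a1 for a glutamine transporter, had ratios of 1.09 (1.05 to 1.13) and 1.12 (1.06 to 1.18).

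Factors of the dorsal telencephalic lineage, from which cortical glutamatergic neurons arise, went both ways. Of 11 tested genes 2 were called higher and 1 lower, and the median log2 ratio was -0.30. Eomes, the T-box factor of intermediate progenitors, had 524 counts in the control and 158 with the knockdown (0.318, 0.265 to 0.381). Neurod2, a bHLH factor of young projection neurons, had 642 and 1428 counts (2.35 times the control, 2.14 to 2.58), and the dorsal homeobox gene Emx1 had 87 and 170 counts (2.06, 1.58 to 2.70). Correcting the ratios for exon length and base composition ended the call of Emx1 (log2 ratio 0.97). Pax6, a factor of radial glia, did not meet the rule at 930 and 472 counts (0.536, 0.478 to 0.599).

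In this lineage Pax6, Eomes and Tbr1 are known to follow each other from radial glia through intermediate progenitors to postmitotic neurons. There were 0.674 counts of Tbr1 for each of Pax6 in the control library and 2.79 in the knockdown library, a 4.13-fold shift (3.56 to 4.80). For each count of Eomes there were 1.20 and 8.32 counts of Tbr1, a 6.95-fold shift (5.66 to 8.56). Both pairs were chosen after the values were seen, with Tbr1 above the control and Pax6 and Eomes below it. The direction of both shifts was thus given in advance, and a move of cells along this lineage was not tested.

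**Figure D4:**
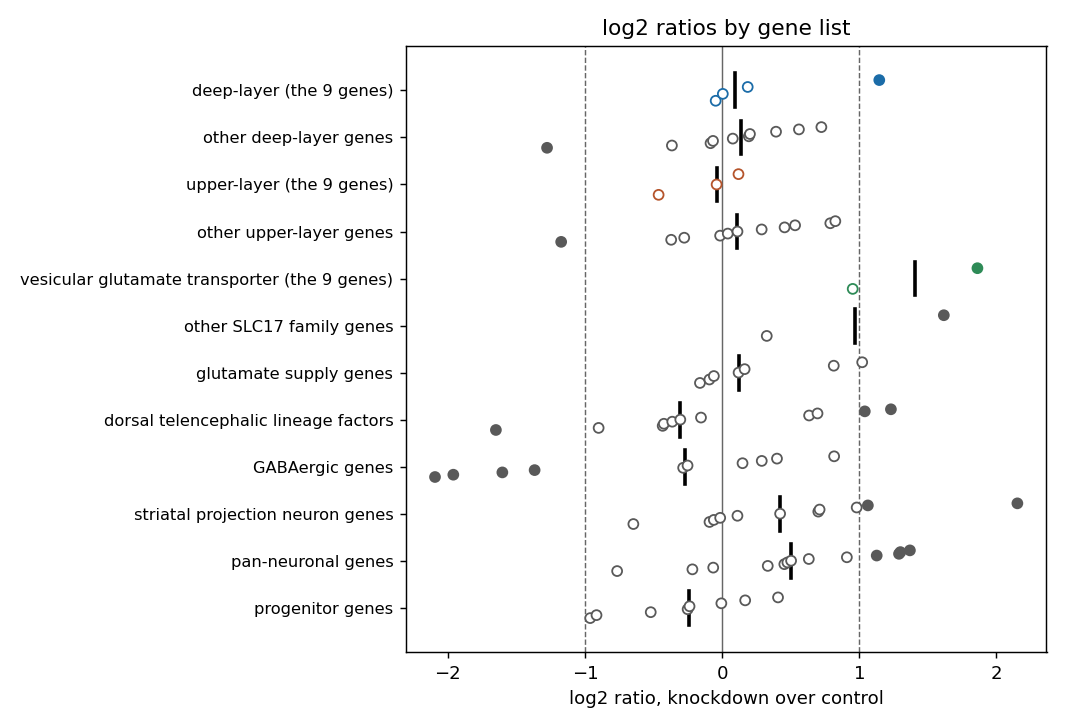
The log2 ratio of knockdown over control for each tested gene of 12 lists (points), with genes that met the size rule filled, list medians as black bars and dashed lines at a 2-fold difference. Tbr1 and Slc17a7 are filled among the 9 genes, the further layer genes lie on both sides of 0, and the pan-neuronal list has 4 filled points on the higher side.

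Genes of GABAergic cells, the other transmitter class of the forebrain, included none that was called higher. Of 10 genes 4 were called lower, and the median log2 ratio was -0.27. The 4 encode homeobox factors of ventral forebrain progenitors and their progeny. Dlx2 had 2842 and 631 counts (0.234, 0.215 to 0.256), and Gsx2 (0.256, 0.195 to 0.332), Dlx5 (0.329, 0.275 to 0.392) and Dlx1 (0.388, 0.365 to 0.412), the last outside the naming rule, were lower too. The GABA vesicle transporter Slc32a1 had 399 and 499 counts, and Slc17a6 and Slc17a7 together had 1.16 counts for each of it in the control and 2.36 with the knockdown. That is a 2.03-fold shift (1.71 to 2.42), for a pair chosen after the values were seen. Of 11 striatal projection neuron genes, which share Bcl11b with the deep layers, 2 were called higher and none lower, with a median of 0.42. Those called included Ppp1r1b, which encodes a protein phosphatase inhibitor, with 49 and 208 counts (4.48, 3.27 to 6.25). Of the 11 genes 7 lay above 0 and 4 below, and at a minimum of 10 CPM the median was 0.11. The list summed to 585 CPM in the control and 466 CPM with the knockdown. Its most abundant gene, Meis2, had 4060 and 2457 counts (0.639, 0.607 to 0.672) and was named after its value was seen.

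Pan-neuronal genes differed in both directions, but most lay above the control. Of 13 genes 4 were called higher and none lower, 10 lay above 0 and 3 below, and the median log2 ratio was 0.50. The list summed to 6012 CPM in the control and 8009.8 CPM with the knockdown. Those called included the growth cone protein Gap43 (2.46, 2.36 to 2.57), the vesicle fusion protein Snap25 (2.45, 2.24 to 2.67) and the neurofilament Nefl (2.59, 2.20 to 3.05). The 3 genes below 0 did not meet the rule. They were the vesicle calcium sensor Syt1 at 0.588 (0.545 to 0.635), the RNA-binding protein gene Elavl3 at 0.861 (0.822 to 0.901) and the neuronal tubulin Tubb3 at 0.956 (0.928 to 0.985). Progenitor and proliferation genes held 4735 and 4345 CPM in sum, with none of 8 called, 6 of 8 below 0 and a median of -0.24. The lowest were the proliferation genes Top2a, for a topoisomerase of dividing cells, at 0.514 (0.489 to 0.539) and Mki67, for the antigen Ki-67, at 0.530 (0.506 to 0.555), both just short of the 2-fold threshold, followed by the Notch target Hes5 at 0.697 (0.619 to 0.785). The most abundant genes of that list, Vim for the filament protein vimentin and Fabp7 for a fatty acid binding protein of radial glia, had ratios of 0.996 (0.972 to 1.02) and 1.33 (1.29 to 1.36). The part of such differences in the levels of Tbr1, Slc17a6 and Slc17a7 was not tested. The shift of these genes within a library depended on the neuronal gene they were set against. Against Tubb3 the shift was 2.31-fold for Tbr1 (2.09 to 2.56), 3.81-fold for Slc17a7 (3.24 to 4.48) and 2.02-fold for Slc17a6 (1.73 to 2.37). Against Snap25 it was 1.49-fold for Slc17a7 (1.24 to 1.79), 0.905-fold for Tbr1 with an interval that includes 1 (0.794 to 1.03) and 0.792-fold for Slc17a6 (0.663 to 0.947). These pairs, and the genes Syt1, Elavl3, Tubb3, Top2a, Mki67 and Hes5, were chosen after the values were seen.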

How the data were processed

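RNA of 1 control and 1 H3.3 knockdown library was enriched with oligo(dT) and reverse transcribed with random primers, per the labels' protocols. HTSeq 0.6.0, TopHat2 2.0.12 and Bowtie 1.0.1 are listed in the submitters' processing notes; the sources used here give neither their settings nor the genome build nor the use of strand. The counts are whole reads per gene as deposited. The deposited CPM values are the counts divided by 1 constant per library by the authors. The authors' deposited table also gives a fold ratio and its log2 value, whose log2 fold changes for the 9 genes differ from the log2 ratios here by at most 0.0024.

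Symbols were matched for 18423 of 18510 Ensembl IDs, and 1 further row is not analysed here. Positions of genes were taken as deposited, and 6 of the 9 equal GENCODE vM21 (GRCm38), which gave exon lengths. Promoter sequences are from RefSeq (GRCm38.p6), with entries for all 9 genes. Counts were divided by the column totals. The log2 ratio, from which the fold of the size rule is taken, has 0.5 count added to each library. Intervals are exact conditional (Clopper-Pearson) at 95%, or exact Poisson for a level. With 1 library per group, intervals cover counting error only. Reads carry no molecular identifiers, so copies of a molecule are counted as separate reads and intervals may be too narrow. With 3 counts as the limit that a count of 0 allows, this is 0.327 CPM (control) or 0.345 CPM (knockdown). The procedure was tested on simulated counts that held counting error only, so that test says nothing about spread between cultures.

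The 9 genes, 15 further lists and the rules were chosen with earlier results of these data known. Genes named from a further list are up to 3 that met the rule with intervals farthest from 1, or its 2 most abundant genes where none did, and some genes that this rule names are not reported here. Scaling alternatives used edgeR 4.0.16 (TMM) and DESeq2 1.42.0 (size factors). Python 3.11.15 with scipy 1.17.1 was used elsewhere.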

Additional observations from a re-analysis of the deposited data

How the results depend on the processing

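No paired analysis was possible because each group holds 1 library. Tbr1 and Slc17a7 were the genes of the 9 called in each of the 8 alternatives that kept the 2-fold threshold, and with a 1.5-fold threshold Slc17a6 was called too. Over 6 alternatives the log2 ratio of Tbr1 ranged from 1.13 to 1.17, of Slc17a7 from 1.84 to 1.92 and of Slc17a6 from 0.91 to 0.97, while Sox5 ranged from -0.10 to 0.02 and Fezf2 from -0.06 to 0.03, crossing 0. Cux1 moved to -0.60 with a correction for gene length and GC content, an alternative chosen after seeing the data. Of all genes, 890 met the rule, against 343 with a minimum of 10 CPM and 2408 with a 1.5-fold threshold, by construction of those limits. The deep-layer to upper-layer shift was 1.33 without Tbr1, 1.73 without Bcl11b, 1.66 without Sox5, 1.24 without Cux1 and 1.06 without Tbr1 and Cux1. Of 30 called genes in the further lists 3 lost their call under an alternative that kept the minimum of 1 CPM. They were Emx1 as described, Mog with 5 counts added and C1qa with DESeq2 size factors. The minimum of 10 CPM ended further calls because it left the genes untested. Among these were Crym, Slc17a8, Barhl1, S100b, Enpp6, Flt1, Col1a1, Col1a2 and Col3a1, and also Mog and C1qa. A further 92 recomputed values of the main counts, medians and ratios stayed within counting error or, for counts, within 1.5 times. With 1 library per group the spread between cultures is unknown.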

Other observations

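Factors of the thalamus, midbrain and hindbrain, regions where many but not all glutamatergic neurons use Slc17a6, were also present. Of 10 tested genes 1 was called higher and none lower, with a median log2 ratio of 0.39, and the list summed to 140.2 CPM in the control and 183 CPM with the knockdown. The gene called was Barhl1, a homeobox factor of cerebellar and midbrain neurons, with 7 and 28 counts (4.22 times the control, 1.80 to 11.4). Tcf7l2, a Wnt effector strongly expressed in the thalamus and also in glial precursors, had 770 and 1079 counts and a ratio of 1.48 (1.35 to 1.62). At 83.8 and 124 CPM it held most of the list's sum. The next most abundant gene, Otx2, lay below the control with 256 and 157 counts (0.647, 0.527 to 0.793). Both were named after their values were seen. In the list 8 genes lay above 0 and 2 below, and only 3 had a mean of 10 CPM or more.

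Among glial lists, most oligodendrocyte lineage genes were lower. Of 7 oligodendrocyte lineage genes 5 were called lower and 1 higher, with a median log2 ratio of -1.47 and a summed level of 832 and 533 CPM. Among them Myrf, a regulator of myelin genes, had 554 and 95 counts (0.181, 0.144 to 0.225) and Enpp6 had 71 and 1 (0.0149, 0.000371 to 0.0855). Of 6 astrocyte genes S100b, with 68 and 7 counts (0.109, 0.0421 to 0.236), was the 1 called lower, and the median was 0.15. Markers of cells from outside the neural lineage were scarce. The 5 microglia genes summed to 2.29 and 4.37 CPM, with C1qa called higher at 5 and 14 counts and a median log2 ratio of 1.20 over 2 tested genes. The endothelial genes summed to 6.97 and 13.1 CPM, with Flt1 called higher at 0 and 20 counts and a median of 0.70. The mesenchyme genes summed to 36.3 and 40.9 CPM, with 3 called higher, among them Col3a1 (31 and 108 counts) and Col1a2 (33 and 83 counts), and Pdgfrb called lower (209 and 51 counts), and their median was 1.23 over 4 tested genes.

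The annotation in the deposited table links the 9 genes only loosely. It gives no biological process term for Bcl11b and Fezf2, and no term is shared by more than 3 of the other genes. The broadest shared one, DNA-templated transcription, holds Sox5, Cux2 and Rorb among 1329 tested genes, of which 23 were called higher and 34 lower, 4.29% in all against 6.36% of all tested genes.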
